A study of Mus musculus with 12 samples.

Results

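Idh1, Idh2, Me1, G6pdx, Pgd, Nnt, Tkt and Taldo1 encode enzymes that make NADPH or that share the pentose phosphate pathway with those that do. They are 8 of the 48321 genes listed, and all 8 passed the filter on low values (10 or more normalized counts in 3 or more of the 12 libraries), as did 11998 genes in all. Idh1 was chosen by the interaction measured in these same libraries, that is, by how far its tSema4B effect after NE lay from that in unstimulated cells, so its values are a description and carry no test. The other 7 genes were chosen for what their enzymes do, and they were tested.

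RNAseq was available for immortalized murine brown adipocytes in 4 groups of 3 libraries. The cells came from interscapular brown fat preadipocytes of C57BL/6J wildtype mice, immortalized with SV40 large T antigen, and all of them carried a pLEX lentiviral construct. Vector cells held the empty construct, and tSema4B cells held a truncated, soluble form of Sema4B. Each construct was represented by 1 stably transduced line, so the lines and the constructs cannot be told apart. On day 8 of differentiation the cells were kept for 6 h in serum-free medium, either without further treatment (unstimulated) or with 2 μM norepinephrine (NE). The methods name a newborn donor mouse, whose sex was not given in the sources used here. By their labels, the 3 libraries of each group were technical replicates, and p-values measure only the spread between these libraries.

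Reads counted on genes ranged from 2000780 to 5409583 per library, and within each condition every vector library was deeper than every tSema4B library. Mitochondrially encoded genes took 13.4 to 16.7% of the reads in vector libraries and 6.91 to 7.90% in tSema4B libraries. No library duplicated another of its group: in the 12 pairs, counts differed by 3.65 to 6.12 times what read sampling alone gives (chi-square over its degrees of freedom). Sema4b, the transduced gene, lay between 110800 and 124000 normalized counts in unstimulated vector libraries and between 65470 and 81750 in NE-treated ones. In tSema4B libraries it lay between 258300 and 316900 unstimulated and between 208800 and 270700 after NE. Log2 differences between the lines were 1.265 unstimulated and 1.655 after NE. Reads of the construct and of the endogenous gene were counted together. Which of them gave the reads in vector libraries cannot be told from counts per gene.

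NADPH carries the electrons that cells spend on building fatty acids and sterols and on keeping glutathione and thioredoxin reduced. Adipocytes draw it from the oxidative branch of the pentose phosphate pathway (G6pdx and Pgd), from cytosolic malic enzyme (Me1) and from the NADP-dependent isocitrate dehydrogenases of the cytosol and peroxisomes (Idh1) and of mitochondria (Idh2). Nnt, in the inner mitochondrial membrane, transfers hydride from NADH to NADP. Tkt and Taldo1, the transketolase and transaldolase of the non-oxidative branch, make no NADPH themselves and return pentose phosphates to glycolysis or to the oxidative branch.

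Because 6 of the genes were lower together in unstimulated tSema4B cells, the sequences before their starts were searched for short motifs, and those of Idh1, the gene the others are set against, and Taldo1, the member with the largest difference between the lines, are shown. Each is the 250 bases before the RefSeq start (GRCm38.p6), 5′ to 3′ on the strand of the gene, with matches on either strand to the GC box, spelled GGGCGG, or to the promoter element CCAAT in capitals. Idh1 is at chr1:65186480-65186729 on the minus strand and Taldo1 at chr7:141391910-141392159 on the plus strand.
Idh1: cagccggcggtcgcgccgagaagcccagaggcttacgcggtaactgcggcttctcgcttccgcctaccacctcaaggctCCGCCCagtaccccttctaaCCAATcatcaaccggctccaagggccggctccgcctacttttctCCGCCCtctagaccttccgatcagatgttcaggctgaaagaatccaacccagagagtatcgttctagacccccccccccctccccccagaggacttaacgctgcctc
Taldo1: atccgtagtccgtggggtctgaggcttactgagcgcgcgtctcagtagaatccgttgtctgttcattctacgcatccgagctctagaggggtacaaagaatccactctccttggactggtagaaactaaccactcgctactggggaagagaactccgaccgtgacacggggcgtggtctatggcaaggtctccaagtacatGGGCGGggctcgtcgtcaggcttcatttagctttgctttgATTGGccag
Idh1 had GC box matches beginning 171 and 107 bases before the start and a CCAAT match 151 bases before it. Taldo1 had a GC box match at 49 bases and a CCAAT match at 9 bases. RefSeq windows were found for 7 of the 8 genes (10 windows in all, some genes having more than 1 start), all but Nnt. The GC box was in 8 of the 10 windows, against 32.7% of the 32851 mouse windows of this length, and CCAAT was in 5 of the 10 against 33.8%. All 7 genes had a GC box in at least 1 window, a count by gene that the share of windows does not match. GC content was 61.6% before Idh1 and 54.4% before Taldo1, against a median of 52.4%. The second Idh1 window had 63.6%, Idh2 67.2%, Me1 72.0% and 46.0%, G6pdx 61.2%, Pgd 60.4% and 52.0%, and Tkt 59.6%. The shares over all windows were not matched for GC content. The remaining motifs were searched on both strands too. TGACNNNGC, the core of the antioxidant response element, was found in G6pdx, 57 bases before the start, and is in 10.2% of windows. TGACG, which is contained in the cAMP response element, was found in Taldo1 at 36 bases and is in 17.8%. No match was found in the 10 windows for CACGTG (E-box, 6.02% of all windows), TGACGTCA (cAMP response element, 1.55%), the PPAR response element (a direct repeat with a spacer base, 0.338%), TCACNCCAC (sterol response element, 1.05%) and TTNNGNAA (C/EBP site, 36.8%). A match is a stretch of letters and not a measured binding site.

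Idh1 (ENSMUSG00000025950.16) spans chr1:65158616-65186500 on the minus strand of GRCm38. Its normalized counts in unstimulated cells were 4521, 4381 and 3430 in the vector libraries and 2064, 1895 and 1919 in the tSema4B libraries. After NE they were 2819, 2690 and 2797 in vector cells and 2228, 2243 and 2179 in tSema4B cells. No 2 of the 4 groups overlapped, and the order from high to low was vector unstimulated, vector NE, tSema4B NE and tSema4B unstimulated. Over all genes, the lines did not overlap for 29.4% without stimulation and 37.7% after NE. NE-treated and unstimulated groups did not overlap for 33.3% in vector and 20.7% in tSema4B cells. The same values chose Idh1, so this order is a description and no support. Group means were 4111 ± 594, 1960 ± 91.5, 2768 ± 69.1 and 2217 ± 33.6 normalized counts (SD, n = 3) for unstimulated vector, unstimulated tSema4B, NE-treated vector and NE-treated tSema4B. Idh1 was thus 2.10-fold lower in tSema4B than in vector cells without stimulation (log2 fold change −1.06, SE 0.0848) and 1.25-fold lower after NE (−0.32). Seen the other way, the NE-treated mean was 1.49-fold below the unstimulated mean in vector cells (log2 fold change −0.56) and 1.13 times it in tSema4B cells (0.18).

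The interaction, the tSema4B effect after NE minus that in unstimulated cells, was 0.74 for Idh1 on the log2 scale (SE 0.12). limma called 3 of the 11998 genes for the interaction at an adjusted p of 0.05 or less, which is 0.025% of them, and Idh1 was the second by p. On whole reads edgeR called 4 genes (3 positive and 1 negative), and DESeq2 called 101 (34 positive and 67 negative, 0.842% of all genes). The others were Lpl (0.82), lipoprotein lipase, and Bnip3 (1.16), which was the last inside the threshold, while mt-Rnr2 (−0.45) was the first outside it. These values chose Idh1 and say nothing more about it. The single library that weighed most was vector unstimulated replicate 3, the lowest of its group at 3430, and without it the interaction of Idh1 was 0.86. With libraries rescaled over nuclear genes, which takes the mitochondrial share out of the scaling, the tSema4B effect on Idh1 was −1.15 in unstimulated cells and −0.37 after NE, and the interaction was 0.78. The part that depth plays was not tested beyond such rescaling.

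**Figure D1:**
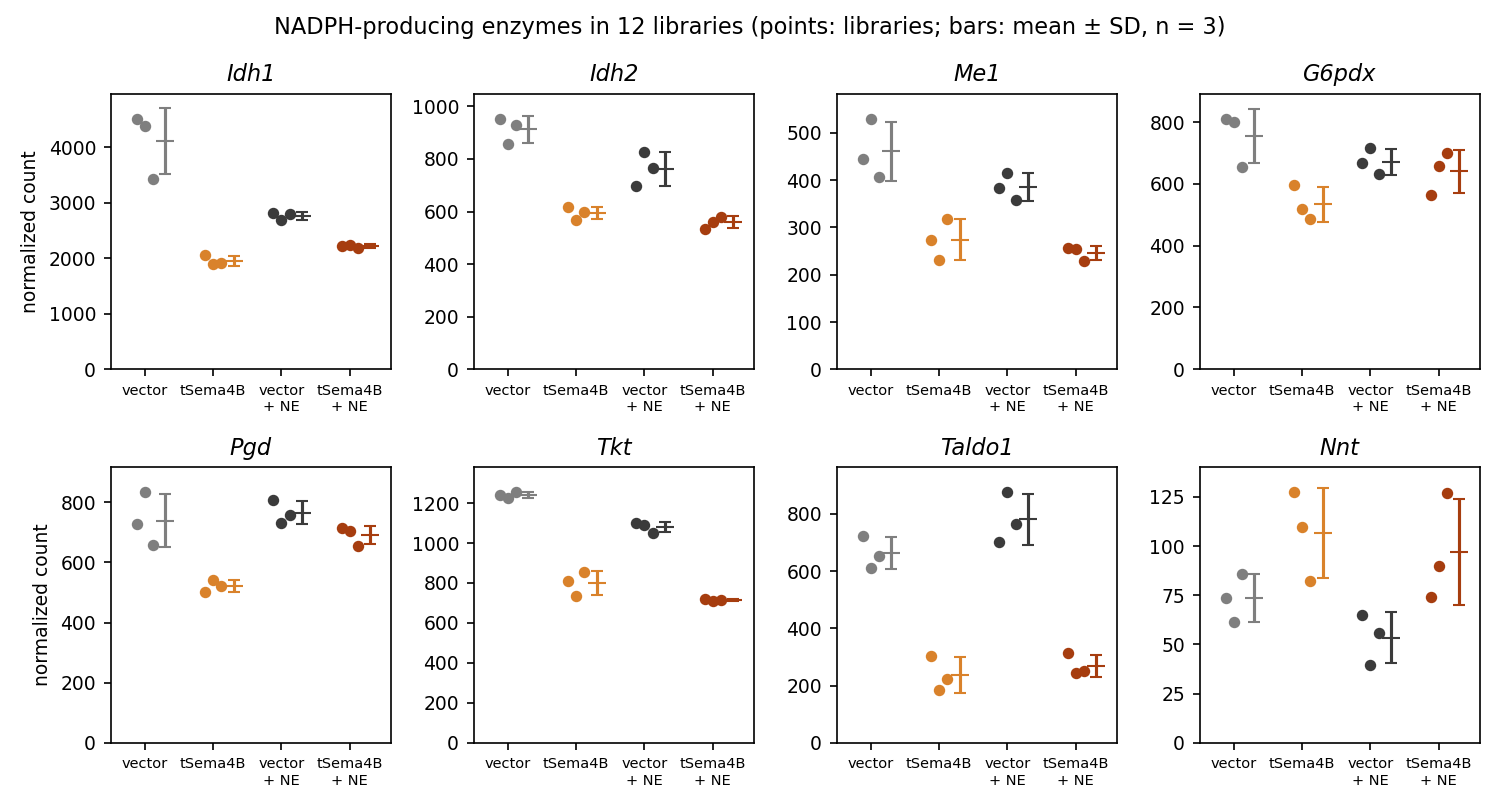
Normalized counts (vertical axis, from 0) of the 8 genes in the 12 libraries, with points for libraries and bars for mean ± SD (n = 3). In the panel of Idh1 the vector libraries without NE lie between 3430 and 4521 and the 4 groups do not overlap, whereas in that of Taldo1 both vector groups lie at 612 or above and both tSema4B groups at 313 or below.

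In unstimulated cells the NADPH enzymes were mostly lower in the tSema4B line. Of the 7 tested genes, Idh2, Me1, G6pdx, Pgd, Tkt and Taldo1 fell, and their groups did not overlap. That is 6 of 7 lower, where 7.39% of all tested genes were lower and 29.4% had groups that did not overlap in either direction. The count of higher genes was 0 by limma, 0 at an unadjusted p under 0.05, and 0 by edgeR and by DESeq2 on whole reads, with 5.64% of all genes higher. The median log2 fold change was −0.62 over the 7 genes and −0.0025 over all genes. After NE, Idh2, Me1, Tkt and Taldo1 fell again and Nnt rose. This is 4 of 7 lower and 1 of 7 higher, with 11.2% of all genes lower and 9.79% higher, and 6 of 7 did not overlap against 37.7% of all genes. The median was −0.44 over the 7 genes and −0.010 over all genes. The effects of tSema4B in the 2 conditions share no libraries, but the lines are the same.

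Few of these genes were called for NE. In vector cells 0 of 7 were higher and 0 of 7 lower by limma, with 6.82% of all genes higher and 4.78% lower. At an unadjusted p under 0.05, 0 were higher and 2 were lower (Idh2 and Tkt), and edgeR called 0. DESeq2 called 1 lower and 0 higher, and over all 11998 genes it called 752 lower and 1018 higher. The share of all genes at the unadjusted p is not given for NE, so nothing is read from those counts. Idh2 and Tkt were also the 2 genes whose groups did not overlap, where 33.3% of all genes did not. In tSema4B cells Pgd rose, 1 of 7, with 3.68% of all genes higher and 2.58% lower. At an unadjusted p under 0.05, 2 were higher there (G6pdx and Pgd), and edgeR and DESeq2 called 1 higher each. Over all genes, edgeR called 418 higher and DESeq2 471. The count of lower genes with NE in tSema4B cells was 0 by limma, unadjusted, by edgeR and by DESeq2. Groups did not overlap for Pgd and Tkt, against 20.7% of all genes. For the interaction 0 of 7 passed in limma, edgeR or DESeq2, and 2 (G6pdx and Pgd, both positive) had an unadjusted p under 0.05, where 5.02% of all genes were positive and 5.21% negative at that p. The smallest p that exact permutation of 3 against 3 libraries allows is 0.1, and the adjusted p-values therefore depend on limma pooling the spread over genes.

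**Figure D2:**
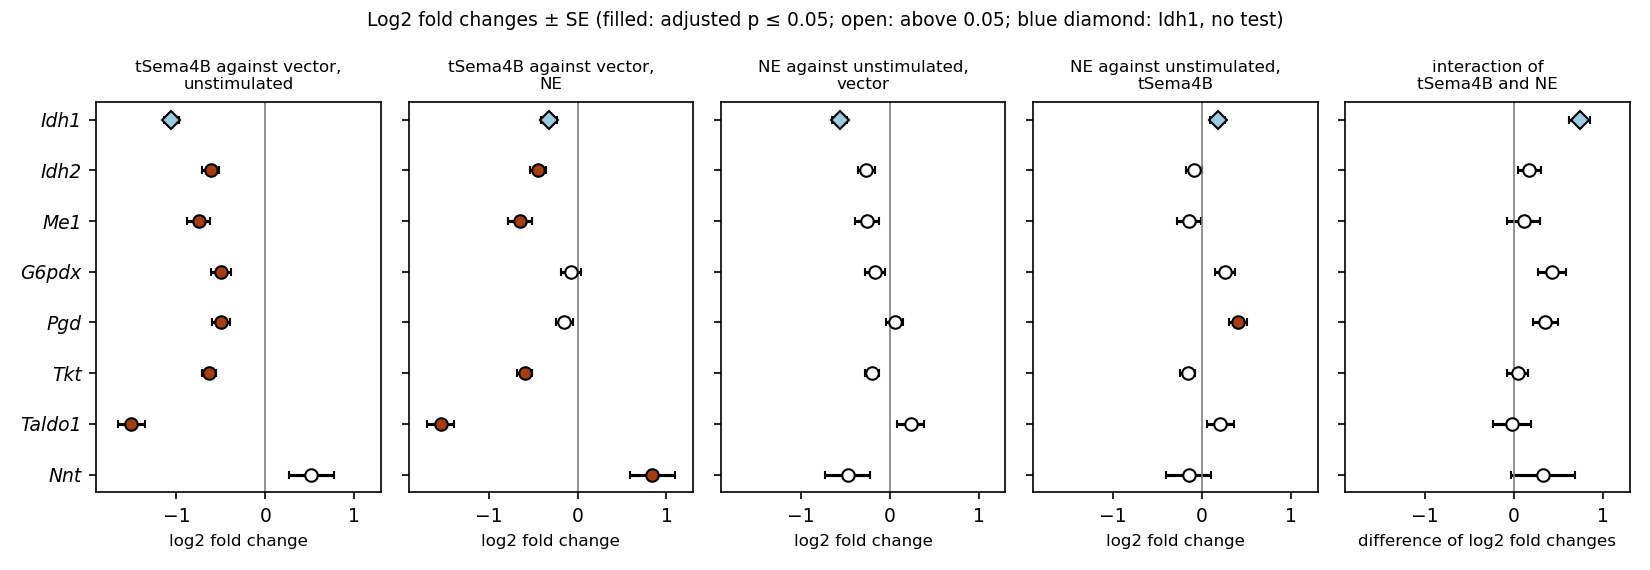
Log2 fold changes (horizontal axis) with their SE for the 8 genes in the 4 comparisons of groups, and the interaction in the last panel. Filled circles passed an adjusted p of 0.05, open circles did not, and the blue diamonds are Idh1, which was not tested. Taldo1 lies near −1.5 in both comparisons of the lines, and Nnt alone lies to the right of 0 in both.

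Idh2 (ENSMUSG00000030541.16, chr7:80094846-80115392, minus strand), the mitochondrial counterpart of Idh1, had 953.5, 855.9 and 927.9 normalized counts in unstimulated vector libraries and 616.2, 569.3 and 598.3 in unstimulated tSema4B libraries. After NE the values were 696.1, 824.5 and 764.7 in vector and 535.1, 560.5 and 580.1 in tSema4B cells. Every vector library was above every tSema4B library, whatever the treatment, and the 2 tSema4B groups overlapped. Idh2 fell in tSema4B cells without stimulation (log2 fold change −0.62, SE 0.0940, adjusted p = 6.83e-05) and after NE (−0.44, adjusted p = 0.00164). In vector cells its mean was 912 ± 50.6 unstimulated and 762 ± 64.2 after NE, groups that did not overlap but with an adjusted p of 0.0764. That difference did pass with quantile normalization (log2 fold change −0.35, adjusted p = 0.0201), with libraries rescaled to the same total (−0.31, adjusted p = 0.0371) and with DESeq2 (−0.26, adjusted p = 0.0392).

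Between Idh1 and Idh2 the levels can be set side by side per length. Per kb of the exons of their coding transcripts, Idh1 stood at 1660 ± 240 normalized counts in unstimulated vector cells and Idh2 at 523 ± 29.0. The ratio of the Idh1 to the Idh2 level per kb was 3.34, 3.61 and 2.60 in the unstimulated vector libraries and 2.36, 2.35 and 2.26 in the unstimulated tSema4B libraries. After NE it was 2.85, 2.30 and 2.58 in vector cells and 2.93, 2.82 and 2.65 in tSema4B cells. The unstimulated groups did not overlap in this ratio, with vector above tSema4B, while the NE-treated groups overlapped. Because the ratio contains Idh1, it is given with no test.

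Me1 (ENSMUSG00000032418.15, chr9:86581371-86695953, minus strand), which makes NADPH by turning malate into pyruvate in the cytosol, had 445.2, 530.5 and 407.3 normalized counts in unstimulated vector and 272.9, 232.0 and 317.6 in unstimulated tSema4B libraries. With NE, Me1 had 383.0, 416.1 and 357.5 in vector and 256.3, 253.7 and 228.6 in tSema4B cells. All 6 vector libraries were above all 6 tSema4B libraries, and within each line the NE-treated and unstimulated groups overlapped. Me1 fell in tSema4B cells without stimulation (log2 fold change −0.75, SE 0.134, adjusted p = 0.000423) and after NE (−0.64, adjusted p = 0.00140). Of the stretches of 100 bases in its transcript, 17.2% also occur in transcripts of Gm48795, Gm7049 or Gm7329, so some Me1 reads may have been lost or shared. Gm7329 itself had between 0 and 11 reads per library.

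G6pdx and Pgd catalyse the oxidative steps of the pentose phosphate pathway, each of which yields NADPH. G6pdx (ENSMUSG00000031400.10, chrX:74409483-74429194, minus strand), the first and committed step, had 811.2, 798.8 and 653.5 normalized counts in unstimulated vector and 597.1, 519.8 and 486.0 in unstimulated tSema4B libraries. After NE it had 665.9, 715.4 and 630.5 in vector and 563.0, 657.1 and 700.3 in tSema4B cells. The lines were apart without NE and overlapped with it, and in the order of the 4 means each group overlapped its neighbour. In unstimulated cells G6pdx fell by 0.50 on the log2 scale with tSema4B (SE 0.113, adjusted p = 0.00434). After NE the log2 difference between the lines was −0.071 (adjusted p = 0.709), and it was 0.024 with libraries rescaled to the same total. The interaction was 0.42 (SE 0.160, adjusted p = 0.343), so the tSema4B effect on G6pdx was not shown to differ between the conditions. G6pdx shares 418 exon bases (13.6% of its exon bases) with Ikbkg on the opposite strand, whose means were 198, 196, 126 and 168 normalized counts in unstimulated vector, unstimulated tSema4B, NE-treated vector and NE-treated tSema4B cells. The strand setting of the counting was not given in the sources used here, so reads from the shared stretch cannot be told apart.

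Pgd (ENSMUSG00000028961.15, chr4:149149991-149166771, minus strand), which oxidises 6-phosphogluconate to ribulose 5-phosphate, had 727.6, 834.1 and 656.8 normalized counts in unstimulated vector and 501.8, 543.0 and 520.2 in unstimulated tSema4B libraries. After NE it had 807.0, 732.0 and 757.5 in vector and 713.1, 703.5 and 655.4 in tSema4B cells. Unstimulated tSema4B cells had the lowest 3 values of the 12, and the other groups lay close together. Pgd fell with tSema4B in unstimulated cells by 0.50 on the log2 scale (SE 0.0991, adjusted p = 0.00132). After NE the groups still did not overlap, with means of 691 ± 30.9 in tSema4B and 766 ± 38.1 in vector cells, but the log2 difference of −0.15 did not pass (adjusted p = 0.317). Within tSema4B cells Pgd rose with NE, from 522 ± 20.6 to 691 ± 30.9 (log2 fold change 0.40, adjusted p = 0.0150), and in vector cells the log2 difference was 0.056 (adjusted p = 0.802). The interaction was 0.35 (SE 0.140, adjusted p = 0.386). The call for NE in tSema4B cells was lost without tSema4B unstimulated replicate 1 (log2 fold change 0.38, adjusted p = 0.0571), without tSema4B NE replicate 2 (0.39, adjusted p = 0.0509) and in a model of only the 6 libraries compared (0.40, adjusted p = 0.0507).

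Of the non-oxidative pair, Tkt (ENSMUSG00000021957.7, chr14:30548359-30574720, plus strand) had 1239, 1227 and 1255 normalized counts in unstimulated vector and 810.4, 736.3 and 852.9 in unstimulated tSema4B libraries. With NE, Tkt had 1098, 1090 and 1051 in vector and 720.6, 711.1 and 713.5 in tSema4B cells. No 2 of its 4 groups overlapped, and in each line the NE-treated group was the lower. Tkt fell with tSema4B in unstimulated cells (log2 fold change −0.63, SE 0.0828, adjusted p = 9.92e-06) and after NE (−0.59, adjusted p = 1.90e-05). The NE differences were smaller, −0.20 in vector (adjusted p = 0.133) and −0.16 in tSema4B cells (adjusted p = 0.295). The vector one passed with quantile normalization (−0.29, adjusted p = 0.0284).

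Taldo1 (ENSMUSG00000025503.5, chr7:141392199-141402968, plus strand) had 723.2, 612.1 and 653.5 normalized counts in unstimulated vector and 305.1, 184.1 and 221.8 in unstimulated tSema4B libraries. After NE it had 702.1, 876.6 and 764.7 in vector and 313.1, 242.4 and 252.4 in tSema4B cells. The highest tSema4B library was far below the lowest vector library, and NE-treated and unstimulated groups overlapped within each line. Taldo1 was 2.80-fold lower in tSema4B cells without stimulation (log2 fold change −1.51, SE 0.151, adjusted p = 2.25e-07) and 2.90-fold lower after NE (−1.54, adjusted p = 1.96e-07). With a fold threshold of 1 on the log2 scale added, Taldo1 was the single gene of the 7 still called, in either condition. Among all genes tested its log2 fold change stood at the 2.37 percentile in unstimulated cells and at the 2.27 percentile after NE. Its interaction was −0.028 (SE 0.213, adjusted p = 0.982), with a sign that changed with the scaling.

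Nnt (ENSMUSG00000025453.18, chr13:119335448-119408997, minus strand) was the 1 member with higher means in tSema4B cells. It had 73.84, 61.38 and 86.04 normalized counts in unstimulated vector and 127.5, 109.8 and 82.14 in unstimulated tSema4B libraries, groups that overlapped. After NE it had 65.18, 39.71 and 55.65 in vector and 73.99, 89.95 and 126.8 in tSema4B cells, groups that did not. Nnt rose with tSema4B after NE by 0.84 on the log2 scale (SE 0.252, adjusted p = 0.0205), and in unstimulated cells the log2 difference was 0.51 (adjusted p = 0.201). The NE call was lost without vector NE replicate 2 (log2 fold change 0.64, adjusted p = 0.121) and without tSema4B NE replicate 3 (0.63, adjusted p = 0.116), the lowest and the highest library of the comparison. C57BL/6J mice are known to carry a deletion within Nnt, and counts per gene do not show which exons the reads came from. In the GENCODE M21 annotation of GRCm38 a second record named Nnt overlaps the first over 3339 exon bases (47.5% of those of the first), so the counting could have set reads from this stretch aside.

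Per kb of exon, Idh1 was the highest of the 8 genes and Nnt the lowest in all 4 groups. Idh1 stood at 1660 ± 240 normalized counts per kb in vector unstimulated, 791 ± 36.9 in tSema4B unstimulated, 1118 ± 27.9 in vector NE and 895 ± 13.5 in tSema4B NE cells. Nnt stood at 16.8 ± 2.81, 24.2 ± 5.21, 12.2 ± 2.93 and 22.1 ± 6.17 in the same order. The gene whose place varied most was Taldo1. It was the second highest in vector NE cells, at 573 ± 64.8 per kb, and the third in vector unstimulated cells, at 486 ± 41.2, where its range overlapped that of Idh2. In tSema4B cells it was the sixth, at 174 ± 45.4 unstimulated and 197 ± 28.1 after NE. In unstimulated tSema4B cells Tkt (248 ± 18.3), Pgd (235 ± 9.31) and G6pdx (202 ± 21.5) followed Idh2. Tkt and Pgd overlapped, while the lowest Pgd library (226) was just above the highest G6pdx library (225). Of the summed level per kb of the 8 genes, Idh1 made up 43.3% ± 2.87, 37.9% ± 0.603, 35.2% ± 1.67 and 39.3% ± 0.492 (SD, n = 3) in unstimulated vector, unstimulated tSema4B, NE-treated vector and NE-treated tSema4B cells.

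**Figure D3:**
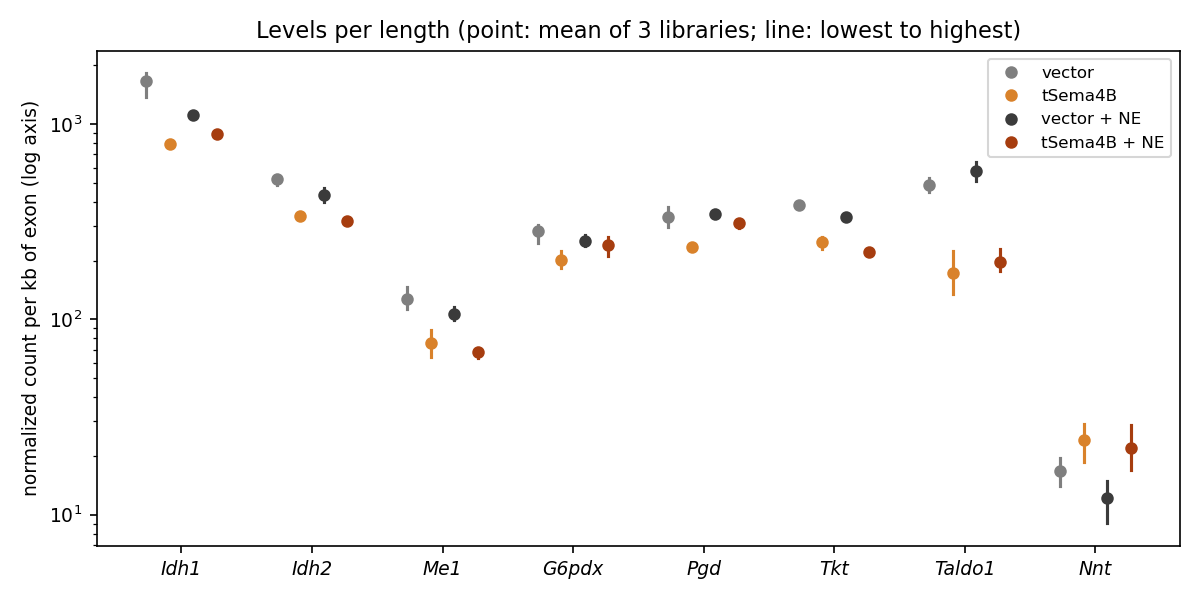
Mean normalized count per kb of exon (vertical log axis) of the 8 genes in the 4 groups, with lines from the lowest to the highest of 3 libraries. Idh1 is the highest and Nnt the lowest in every group, and Taldo1 is the gene whose vector and tSema4B points lie farthest apart.

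The genes whose pattern was closest to that of Idh1 were found by the root mean square difference of log2 values, each gene centred on its own mean over the 12 libraries. They were Cs (0.147), Ccnb1 (0.164), Lypla1 (0.164), Mif4gd (0.169) and Slc25a10 (0.172). Cs encodes citrate synthase, Ccnb1 cyclin B1, Lypla1 an acyl-protein thioesterase and Slc25a10 the mitochondrial dicarboxylate carrier. Cs had means of 2316 ± 124, 1085 ± 56.4, 1824 ± 128 and 1203 ± 125 normalized counts in unstimulated vector, unstimulated tSema4B, NE-treated vector and NE-treated tSema4B cells, the same order of groups as in Idh1. Of the 8 genes, Idh2 was the closest to Idh1 (0.204, place 23 of 11997), followed by Me1 (0.205, place 25) and Tkt (0.208, place 29). G6pdx (place 143) and Pgd (place 339) came next, and Taldo1 (place 5849) and Nnt (place 9740) were far from it. The libraries are the same for all genes, so shared depth and scaling enter this measure. With Pearson correlation as the ranking, 1 of the 5 closest genes was the same.

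Around the 8 genes, 74 genes in 8 lists cover the rest of the pentose phosphate pathway, other routes to NADPH, the supply of citrate and malate, and the reactions that spend NADPH. Of these, 67 were tested. The interaction passed for 0 of the 67 in limma and edgeR and for 1 (positive) in DESeq2, where 0.842% of all genes passed. At an unadjusted p under 0.05, 10 of the 67 were positive and 3 negative, against 5.02% and 5.21% of all genes, and nothing particular to the lists is read from this. The lists were written with earlier results of these data known, and the genes named below are those, among the largest changes of each list, whose adjusted p stayed at 0.05 or less in every alternative fit.

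Of the enzymes that share substrates with Idh1 and Idh2, the NAD-dependent isocitrate dehydrogenase of the tricarboxylic acid cycle fell in tSema4B cells in all its subunits. With Me2, they make 4 tested genes, of which 3 were lower in both conditions (median −0.69 unstimulated and −0.61 after NE). Over all tested genes 7.39% were lower unstimulated and 11.2% after NE. Idh3a, the catalytic alpha subunit, had means of 1409 ± 269 in vector and 580 ± 86.3 in tSema4B cells without stimulation (log2 fold change −1.27, adjusted p = 1.19e-07). With NE, Idh3a had 1628 ± 100.1 and 847 ± 23.6 (−0.94, adjusted p = 7.87e-06). Idh3g fell likewise (−0.73 unstimulated and −0.64 after NE). With NE, Idh3a rose in tSema4B cells by 0.56 (adjusted p = 0.00625).

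The list of citrate, isocitrate and malate supply had 10 of 12 genes lower in unstimulated tSema4B cells, the largest share of the 8 lists. The median was −0.82, and after NE 9 of 12 were lower (median −0.49). Of all tested genes, 7.39% were lower in unstimulated tSema4B cells and 11.2% after NE. Pcx, pyruvate carboxylase, had means of 998 ± 29.0 in vector and 315 ± 18.7 in tSema4B cells without stimulation (log2 fold change −1.66, adjusted p = 2.39e-09) and fell by 1.38 after NE (adjusted p = 5.09e-08). The mitochondrial pyruvate carrier subunits Mpc1 (−1.19 in unstimulated cells, adjusted p = 0.00195) and Mpc2 (−1.45 after NE, adjusted p = 7.60e-07) fell too. In vector cells 2 of the 12 rose with NE and 3 fell, with 6.82% of all genes higher and 4.78% lower. In tSema4B cells 1 rose, with 3.68% of all genes higher.

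Elsewhere on the pentose phosphate pathway, 3 of 10 tested genes were lower with tSema4B in each condition (medians −0.35 and −0.40). Over all genes 7.39% were lower without stimulation and 11.2% after NE. Pgm2, a phosphopentomutase, fell by 0.62 on the log2 scale in unstimulated cells (adjusted p = 0.00673). Pgls, the lactonase between the steps of G6pdx and Pgd, fell by 0.99 after NE (adjusted p = 0.000123), from a mean of 190 ± 10.8 in vector to 95.8 ± 15.4 in tSema4B cells. Among one-carbon, aldehyde and glutamate enzymes, 3 of 9 were lower in unstimulated tSema4B cells (median −0.18), where 7.39% of all genes were. After NE 4 were lower and 1 higher (median −0.0046), with 11.2% of all genes lower and 9.79% higher. Glud1, glutamate dehydrogenase, fell in unstimulated cells by 0.62 (adjusted p = 0.00242). After NE the folate enzymes Shmt1 (−0.94, adjusted p = 0.00227) and Mthfd2 (−0.83, adjusted p = 0.00362) fell with tSema4B. NE raised 3 of the 9 in vector cells and lowered 1, Aldh1l2 (−0.65, adjusted p = 0.00237), with 6.82% of all genes higher and 4.78% lower. Nadk, the cytosolic kinase that makes NADP from NAD, fell in both conditions (log2 fold changes −0.58 and −0.50, adjusted p = 0.00289 and 0.00655), and the mitochondrial Nadk2 did not pass in either.

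**Figure D4:**
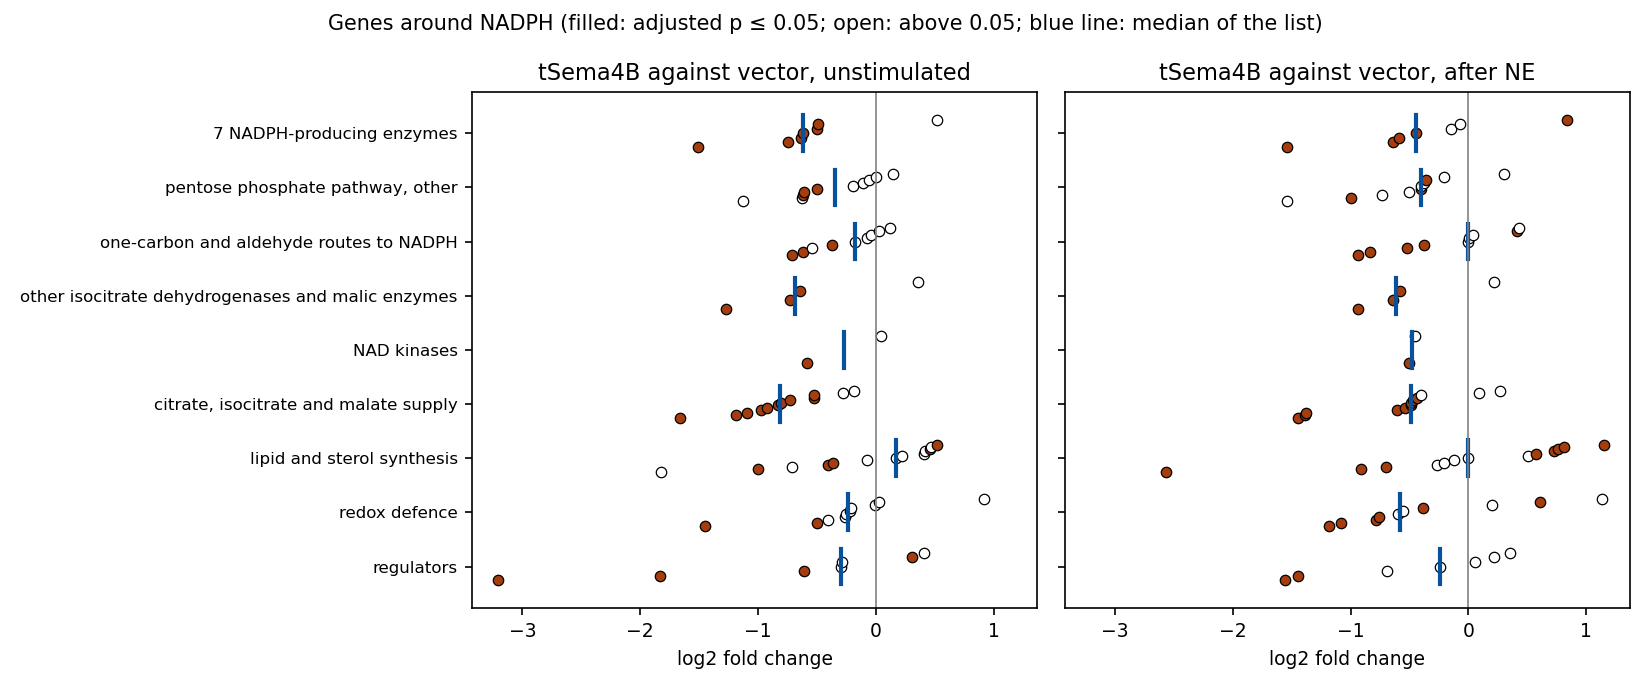
Log2 fold change of tSema4B against vector (horizontal axis) for each tested gene of the 7 enzymes and the 8 lists, without stimulation on the left and after NE on the right. Filled points passed an adjusted p of 0.05 and blue lines are list medians. The list of citrate, isocitrate and malate supply has 10 of 12 genes filled on the left and 9 of 12 on the right, all to the left of 0, whereas lipid and sterol synthesis has filled points on both sides.

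The genes that spend NADPH, or act beside those that do, were called in both directions. In lipid and sterol synthesis 2 of 13 were higher and 3 lower in unstimulated tSema4B cells (median 0.17). After NE 5 were higher and 3 lower (median −6.3e-05). Of all tested genes, 5.64% were higher and 7.39% lower without stimulation, and 9.79% were higher and 11.2% lower after NE. Hsd17b12, which acts in fatty acid elongation, fell with tSema4B without stimulation (adjusted p = 2.73e-08) and after NE, there from 1223 ± 71.5 in vector to 649 ± 34.0 in tSema4B cells (log2 fold change −0.91, adjusted p = 1.48e-07). Dhcr7, which acts late in sterol synthesis, rose with tSema4B after NE (0.81, adjusted p = 0.00166). Fasn, fatty acid synthase, fell with NE in vector cells by 0.91 (adjusted p = 1.25e-05), from 608 ± 32.5 to 323 ± 14.8, and Fads2, a desaturase, fell by 0.98 (adjusted p = 0.000672). In redox defence 2 of 10 were lower in unstimulated tSema4B cells (median −0.24), where 7.39% of all genes were. After NE 5 were lower and 1 higher (median −0.58), with 11.2% of all genes lower and 9.79% higher. Catalase (Cat) fell in both conditions (log2 fold changes −1.45 and −1.19, adjusted p = 5.94e-11 and 1.11e-09). Gsr, the NADPH-dependent glutathione reductase, rose with NE in vector cells by 0.86 (adjusted p = 0.00511) and fell with tSema4B after NE (−1.08, adjusted p = 0.000339).

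Of 7 tested transcription regulators of these genes, 3 were lower and 1 higher in unstimulated tSema4B cells and 2 were lower after NE. Over all tested genes 7.39% were lower and 5.64% higher unstimulated, and 11.2% were lower after NE. Pparg, the main adipogenic factor, fell without stimulation and after NE (log2 fold changes −1.84 and −1.56, adjusted p = 2.75e-07 and 3.06e-06). Mlxipl, the carbohydrate response factor ChREBP, had means of 78.1 ± 8.27 in vector and 7.58 ± 1.21 in tSema4B cells without stimulation, and it fell in both conditions (log2 fold changes −3.21 and −1.45, adjusted p = 4.08e-07 and 0.00356).

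Markers of cell state moved between the lines alongside the enzymes. All 9 tested brown and mature adipocyte markers (of 10 listed, Pparg among them) were lower in tSema4B cells in both conditions. Their medians were −2.52 unstimulated and −2.12 after NE, and 7.39% and 11.2% of all genes were lower. Their summed level was 26830 to 29450 normalized counts in vector unstimulated, 3685 to 5942 in tSema4B unstimulated, 38760 to 50820 in vector NE and 6057 to 7157 in tSema4B NE libraries. Most of each sum was Fabp4, with means of 24030, 4091, 40900 and 5518 in that order. With NE in vector cells 2 of the 9 were higher and 2 lower (median −0.0080), with 6.82% of all genes higher and 4.78% lower. In tSema4B cells 3 were higher and 0 lower (median 0.47), with 3.68% of all genes higher and 2.58% lower. Ucp1, the uncoupling protein that defines brown adipocytes, was at 0 in all 3 unstimulated tSema4B libraries, and Lep was at 0 in both NE groups. Unstimulated vector libraries, which were deeper, held only 9.25 to 15.2 normalized counts of Ucp1, near the filter of 10. After NE, Ucp1 lay at 268 to 293 in vector and at 60.8 to 66.5 in tSema4B cells. Of 10 preadipocyte and fibroblast markers, 8 were higher in tSema4B cells without stimulation and 9 after NE (medians 0.65 and 0.93). Among all genes 5.64% and 9.79% were higher. The summed level of these 10 markers was 33540 to 34300, 60830 to 70960, 25940 to 28880 and 54010 to 58790 in the same order of groups. No marker of the 10 was at 0 in a group. The part of this shift in the values of the NADPH enzymes was not tested, and in bulk libraries fewer mature adipocytes and less RNA per adipocyte cannot be told apart. Macrophage markers (6) summed to 0 to 24.6, endothelial markers (5) to 4.34 to 21.9 and skeletal muscle markers (6) to 4.29 to 38.7 normalized counts. Ptprc, Adgre1, Kdr, Myod1, Myog, Myf5, Myh4 and Ckm were at 0 in all 12 libraries.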

How the data were processed

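Members and lists were chosen with earlier results of these data known, and Idh1 for its interaction. The authors made SMART-Seq2 cDNA and Nextera XT libraries, read single-end, removed reads of other species, aligned the rest to mm10 (GRCm38.p4) with STAR 2.7.9a, counted per gene with htseq-count and divided by DESeq2 size factors. The deposited signal is thus a normalized read count. The annotation, strand setting and treatment of multi-mapped reads are not given in the sources used here. All non-zero values (100%) were whole multiples of 1 read within a tolerance of 0.01, and 1 read was worth 0.593 to 1.55 normalized counts.

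In R 4.3.3, limma 3.58.1 was fitted with trend to log2(normalized count + 1) of genes with at least 10 in at least 3 libraries, in one model of 4 groups. P-values (two-sided) were adjusted over 11998 genes by Benjamini-Hochberg, and a call needed an adjusted p of 0.05 or less. Fold changes on this scale understate those of low genes. On the recovered counts, edgeR 4.0.16 (quasi-likelihood) called 657 higher and 877 lower genes in unstimulated tSema4B cells, and DESeq2 1.42.0 called 768 and 915. Other alternatives were pseudocounts of 0.5 and 10, no filter or one at 50, rescaling to the same total or over nuclear genes, quantile normalization, a fold threshold, the 6 libraries compared, a replicate block and leaving out each library.

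Named genes were the members, up to 2 genes of each list and direction with the largest called change, the 5 most like Idh1, and markers, and 1 of them is not reported here. Positions, exon lengths and overlaps are from GENCODE M21, and promoter windows from RefSeq. Scripts were tested on simulated data.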

Additional observations from a re-analysis of the deposited data

Results flagged for a closer look

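Idh1 was picked out by 1 value, seen from each side. Its tSema4B effect was −1.06 without stimulation and −0.32 after NE, a difference of 0.74 on the log2 scale. In neither line did its 3 treated and 3 untreated libraries overlap, where 33.3% of all genes did not in vector cells and 20.7% in tSema4B cells. Its NE effect was negative in vector cells (−0.56) and positive in tSema4B cells (0.18), which is again a difference of 0.74. This value chose the gene, so the difference was not tested here, and the lack of overlap adds no support.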

How the results depend on the processing

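A fold threshold of 1 on the log2 scale, added to the adjusted p, left 1 of the 6 lower members in unstimulated tSema4B cells, 1 of the 4 lower and 0 of the 1 higher after NE, and 0 of the 1 higher with NE in tSema4B cells, because most differences were smaller than that. Leaving out 1 library gave 0 to 1 higher members for tSema4B after NE (Nnt) and 0 to 1 for NE in tSema4B cells (Pgd), and the model of only 6 libraries gave 0 for the latter. Lower members with NE in vector cells went from 0 to 1 with libraries rescaled to the same total, 2 with quantile normalization and 1 with DESeq2. For these moves the cause was not tested. All other settings kept these counts, and the 0 members called for the interaction stayed 0 in all 23 settings. Ranking by Pearson correlation kept 1 of the 5 genes most like Idh1.

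The tSema4B effect on Idh1 after NE was −0.23 with libraries rescaled to the same total, −0.37 over nuclear genes and −0.27 with quantile normalization, and its interaction ranged from 0.66 to 0.86 when 1 library was left out. No scaling moved the median of all genes by 0.1 or more on the log2 scale. Signs changed only for differences that did not pass. G6pdx for tSema4B after NE was 0.024 with the same total and ranged from −0.14 to 0.019 when 1 library was left out. Pgd for NE in vector cells was −0.018 with quantile normalization and ranged from −0.026 to 0.15. Nnt for NE in tSema4B cells ranged from −0.36 to 0.027. The interaction ranged from −0.0075 to 0.22 for Me1, from −0.017 to 0.089 for Tkt and from −0.19 to 0.17 for Taldo1, which was 0.042 with the same total, 0.0086 over nuclear genes and 0.028 with quantile normalization. Of 60 calls named in the lists, 28 were lost under at least 1 setting and 0 reversed. Same-numbered libraries were not paired, with correlations of −0.047 to 0.028 over 18 pairs, and the replicate block changed no call among the members and moved all calls from 1564 to 1504, 2517 to 2439, 1392 to 1323, 750 to 712 and 3 to 3 in the order of the comparisons above (interaction last). Nnt was the member with the fewest reads.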
